A study of Mus musculus with 52 samples.

Results

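Whole MC38-CEACAM5 tumors of mice treated with ATOR-4066 were compared with whole tumors of mice given vehicle. ATOR-4066 is a bispecific antibody that binds the receptor CD40 and the tumor antigen CEACAM5. Of the 52 RNA sequencing libraries of the series, 8 enter the comparison, namely ATOR-4066 tumors 1, 2, 4 and 5 and vehicle tumors 1, 2, 4 and 5, numbered as in their labels. They were chosen by labelled tissue and treatment, and the library labelled tumor ATOR-4066 3 was left out for its profile of lymphoid tissue. The CD40 mAb tumors (n = 5), from mice given an antibody against CD40 alone, were kept in the fit as a further treatment group. The animals of all groups, vehicle included, were hCD40tg mice, which carry human CD40 as a transgene, and all bore MC38-CEACAM5 tumors, grown from a mouse colon carcinoma line that expresses CEACAM5. The promoter of the transgene, the doses and times of treatment and the ages of the mice are not given in the labels. The mouse gene Cd40 was measured, and the human transgene was not analysed here.

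CD40 is a receptor of the tumor necrosis factor receptor family on dendritic cells, macrophages and B cells. When its ligand on helper T cells, or an antibody, clusters it, TRAF adaptor proteins bind its tail and activate the transcription factor NF-kappaB. Activated dendritic cells raise costimulatory molecules and prime T cells, and activated macrophages release cytokines and chemokines, among them those that call in neutrophils. A bispecific antibody that also binds a tumor antigen is designed to gather CD40 on cells that touch tumor cells.

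Each ATOR-4066 tumor had 47.4 to 52.5 M (mega) estimated counts (n = 4), each CD40 mAb tumor 49.7 to 64.2 M (n = 5) and each vehicle tumor 49 to 60.7 M (n = 4). In the left-out library, B cell markers summed to 6843 CPM (counts per 1000000 counts of the library) and markers of lymphoid stroma and high endothelium to 1821 CPM. The retained ATOR-4066 tumors held 70.5 to 142 CPM and 37.4 to 82 CPM of these lists. Vehicle tumor 1 was the highest of the retained libraries for B cell markers, at 318 CPM, with the remaining vehicle tumors between 86 and 103 CPM. CD40 mAb tumor 5, which was kept, held 2135 CPM of T cell markers, against 2147 CPM in the left-out library. It held 251 CPM of B cell markers and 289 CPM of markers of lymphoid stroma and high endothelium. Epithelial markers summed to 7.08 to 44.9 CPM in ATOR-4066 tumors, 7.05 to 365.6 CPM in CD40 mAb tumors (highest in tumor 5) and 12.8 to 38.5 CPM in vehicle tumors. The epithelial keratin gene Krt20 was at 0.0201 to 0.328 CPM in the ATOR-4066 tumors, against 0.134 to 0.161 CPM in the vehicle tumors. Leukocytes were present throughout, with Ptprc, which encodes the leukocyte antigen CD45, at 183 to 430.2 CPM in the ATOR-4066 tumors, against 176 to 293 CPM in the vehicle tumors, and these ranges overlap. In whole tissue, fewer cells of a type and less RNA per cell cannot be told apart.

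The promoters of 7 genes on which the results below turn are shown first. Each is the 250 bases before the annotated start in RefSeq (GRCm38.p6), 5′ to 3′ on the strand of the gene, in lower case with a motif match in capitals. For the chemokine genes Cxcl2 (chr5:90903649-90903898, plus strand) and Cxcl3 (chr5:90785851-90786100, plus strand), the cytokine gene Il6 (chr5:30012864-30013113, plus strand) and the NF-kappaB inhibitor gene Nfkbia (chr12:55492648-55492897, minus strand), the capitals mark the NF-kappaB consensus. In Cxcl2 and Cxcl3 the match on each strand overlaps the other, which gives 1 marked run.
Cxcl2: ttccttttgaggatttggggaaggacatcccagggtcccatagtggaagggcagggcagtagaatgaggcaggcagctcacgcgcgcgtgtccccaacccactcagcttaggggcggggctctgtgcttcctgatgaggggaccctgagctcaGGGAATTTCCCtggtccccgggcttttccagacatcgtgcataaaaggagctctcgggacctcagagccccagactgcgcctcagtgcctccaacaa
Cxcl3: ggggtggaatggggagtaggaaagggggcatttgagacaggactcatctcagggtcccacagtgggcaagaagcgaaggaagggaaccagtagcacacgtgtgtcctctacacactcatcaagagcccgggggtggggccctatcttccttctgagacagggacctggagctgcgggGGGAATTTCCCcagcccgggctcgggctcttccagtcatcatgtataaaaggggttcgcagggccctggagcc
Il6: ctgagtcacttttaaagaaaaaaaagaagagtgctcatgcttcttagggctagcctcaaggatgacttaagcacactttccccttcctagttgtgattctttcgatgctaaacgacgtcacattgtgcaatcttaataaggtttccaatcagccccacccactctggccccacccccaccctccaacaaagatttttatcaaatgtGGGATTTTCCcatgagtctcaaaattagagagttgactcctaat
Nfkbia: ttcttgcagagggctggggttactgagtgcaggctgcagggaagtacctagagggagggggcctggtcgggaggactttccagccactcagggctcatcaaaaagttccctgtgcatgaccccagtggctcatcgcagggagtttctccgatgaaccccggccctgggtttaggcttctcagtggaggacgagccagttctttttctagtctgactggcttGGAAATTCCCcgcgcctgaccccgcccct
For the acute phase gene Saa3 (chr7:46715677-46715926, minus strand) and the lectin receptor gene Clec4e (chr6:123289872-123290121, minus strand), the capitals mark a C/EBP motif, TTGCNNAA on either strand.
Saa3: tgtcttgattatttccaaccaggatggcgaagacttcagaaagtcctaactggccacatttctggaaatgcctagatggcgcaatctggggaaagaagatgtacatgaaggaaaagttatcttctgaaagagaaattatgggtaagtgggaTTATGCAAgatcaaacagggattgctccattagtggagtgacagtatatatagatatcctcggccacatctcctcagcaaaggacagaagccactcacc
Clec4e: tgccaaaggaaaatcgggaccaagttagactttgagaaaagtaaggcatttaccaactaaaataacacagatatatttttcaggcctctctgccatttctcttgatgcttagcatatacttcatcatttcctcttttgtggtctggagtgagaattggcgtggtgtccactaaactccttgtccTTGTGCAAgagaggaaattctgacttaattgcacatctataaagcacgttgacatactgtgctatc
For Hmgcs1 (chr13:119690101-119690350, plus strand), an enzyme gene of cholesterol synthesis that was lower in the ATOR-4066 tumors, they mark a sterol regulatory element, TCACNCCAC on either strand.
Hmgcs1: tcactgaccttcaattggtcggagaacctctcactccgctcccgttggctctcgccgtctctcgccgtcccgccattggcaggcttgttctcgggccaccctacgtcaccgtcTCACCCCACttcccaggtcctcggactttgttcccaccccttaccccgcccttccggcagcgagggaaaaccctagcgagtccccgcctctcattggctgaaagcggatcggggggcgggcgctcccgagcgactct
A promoter window was available for 184 of the 243 genes called below. The NF-kappaB consensus was found in 18.5% of called higher genes (23 of 124) and in 8.33% of called lower genes (5 of 60), against 10.6% of all genes tested (1321 of 12449) and 7.25% of all windows. The C/EBP motif was found in 15.3% of called higher genes (19 of 124) and in 3.33% of called lower genes (2 of 60), against 9.62% of all genes tested (1197 of 12449) and 9.56% of all windows. The sterol regulatory element was found in 1.61% of called higher genes (2 of 124) and in 1.67% of called lower genes (1 of 60), against 1.20% of all genes tested and 1.05% of all windows. A match is a description of the letters, not a measured binding site.

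Genes called higher in the ATOR-4066 tumors included neutrophil chemokines, neutrophil markers and interleukin genes, and a smaller number of genes, among them Cx3cr1, Xcr1 and genes of cholesterol synthesis, were called lower. Of 18454 genes tested, 243 (1.32%) passed an adjusted p of 0.05, of which 169 (0.916%) were higher and 74 (0.401%) were lower in ATOR-4066 tumors than in vehicle tumors. All adjusted p-values of genes are from the quasi-likelihood F test of edgeR on the 13 tumor libraries, with Benjamini-Hochberg adjustment over all genes tested, unless another fit is named. In all 243 called genes the ATOR-4066 tumors and the vehicle tumors did not overlap in CPM, against 12.6% of all genes tested that were higher and 14.7% that were lower without overlap. The median log2 change over all genes tested was 0.02. Among the called genes, 64 were higher by a log2 change of at least 2, and 40 were lower by at least 1. The count of calls rested on the libraries in the fit. With only the 8 ATOR-4066 and vehicle libraries it was 3959 (2058 higher and 1901 lower), which held 240 of the 243. In that fit 11.7% of 17546 genes tested were called higher and 10.8% lower, and the counts given below with only the 8 libraries are to be read against these shares. No gene passed without vehicle tumor 1, 2, 4 or 5, or without ATOR-4066 tumor 1 or 2, and every count of called list members given below is then 0. Without ATOR-4066 tumor 4 there were 5 calls, without ATOR-4066 tumor 5 there were 158, without CD40 mAb tumor 4 there were 9, and without CD40 mAb tumors 1, 2 and 5 in turn there were 845, 917 and 2202. With only 8 libraries in the fit, leaving out any 1 of them gave 1774 to 4822 calls and kept 237 to 243 of the 243.

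**Figure D1:**
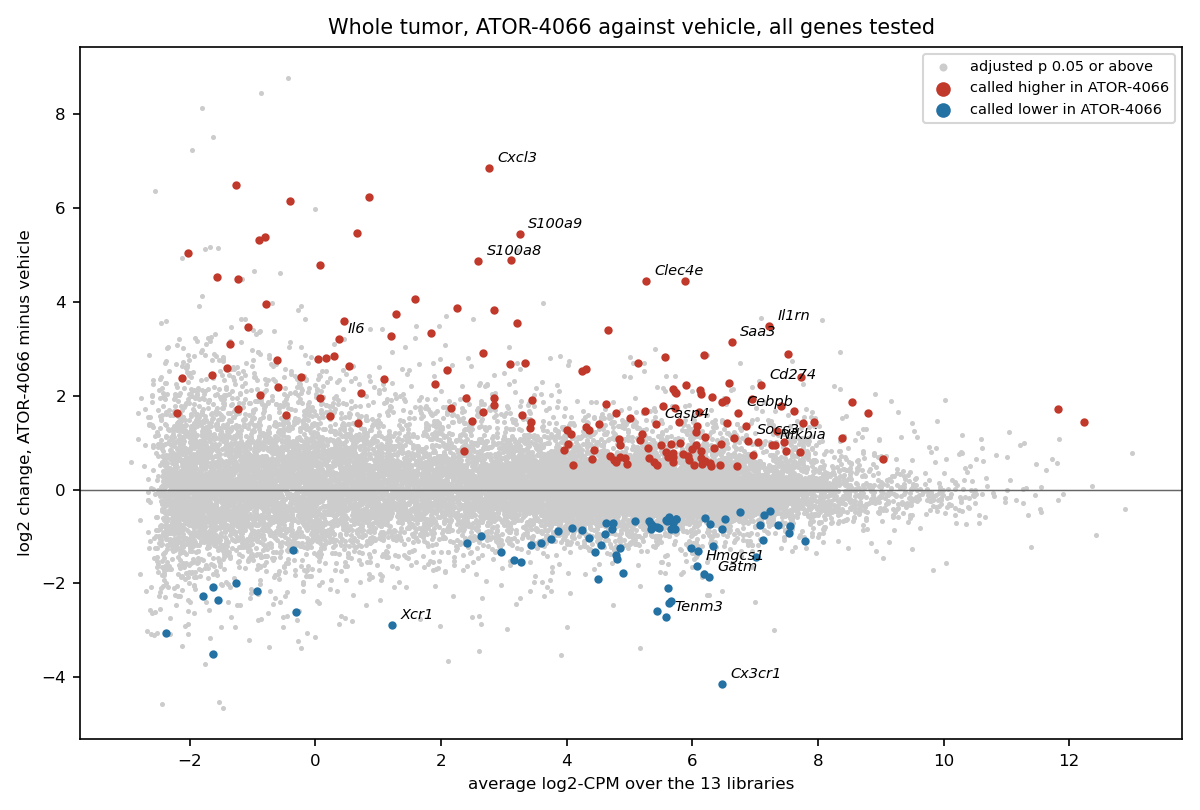
Log2 change between ATOR-4066 and vehicle tumors (vertical axis) against average log2-CPM over the 13 libraries (horizontal axis) for all 18454 genes tested, with 169 genes called higher in red and 74 called lower in blue. Cxcl3, at 6.84, was the highest and Cx3cr1, at -4.15, the lowest of the labelled genes.

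Chemokines and growth factors of neutrophils were the gene list with the highest median change of those examined. Of 7 tested members, 5 rose (7 with only the 8 libraries), none fell, and all 7 were higher in every ATOR-4066 tumor than in any vehicle tumor. Their median log2 change was 3.27, against 0.02 over all genes, and it stayed between 2.91 and 3.48 when any library was left out. Cxcl3 (ENSMUSG00000029379, chromosome 5, 90786103 to 90789600, plus strand, GRCm38), a ligand of the neutrophil receptor CXCR2, was at 14.3, 54.4, 2.70 and 8.67 CPM in ATOR-4066 tumors 1, 2, 4 and 5, against 0.118, 0.215, 0.179 and 0.177 CPM in vehicle tumors 1, 2, 4 and 5, and all values below keep this order of animals. Tumor 2 was the highest and tumor 4 the lowest of the treated tumors, and the lowest still lay above every vehicle tumor. The log2 change was 6.84 ± 1.11 (SE, adjusted p = 0.0392). Cxcl2 (ENSMUSG00000058427, chromosome 5, 90903871 to 90905938, plus strand), a further CXCR2 ligand, was at 31.1, 42.6, 8.05 and 8.47 CPM in the ATOR-4066 tumors, against 0.672, 1.17, 0.578 and 0.629 CPM in the vehicle tumors. The treated tumors fell into a higher pair, 1 and 2, and a lower pair, 4 and 5, and neither pair overlapped vehicle. Its log2 change was 4.88 ± 0.87 (SE, adjusted p = 0.0407). Cxcl5, a ligand of the same receptor, rose by 3.27 ± 0.65 (SE, adjusted p = 0.042), and Pf4, a chemokine of platelets and some macrophages, by 2.13 ± 0.42 (SE, adjusted p = 0.042). Cxcr2 itself rose by 3.73 ± 0.81 (SE, adjusted p = 0.048), at 1.90 to 13.9 CPM in the ATOR-4066 tumors, against 0.333 to 0.706 CPM in the vehicle tumors. Cxcl1, named after its values were seen, was at 7.38, 7.62, 6.70 and 7.34 CPM in the ATOR-4066 tumors, against 4.30, 4.15, 4.13 and 3.30 CPM in the vehicle tumors, with a log2 change of 0.87 ± 0.23 (SE, adjusted p = 0.0616). The groups did not overlap for Cxcl1, and the treated tumors lay within a narrow band.

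**Figure D2:**
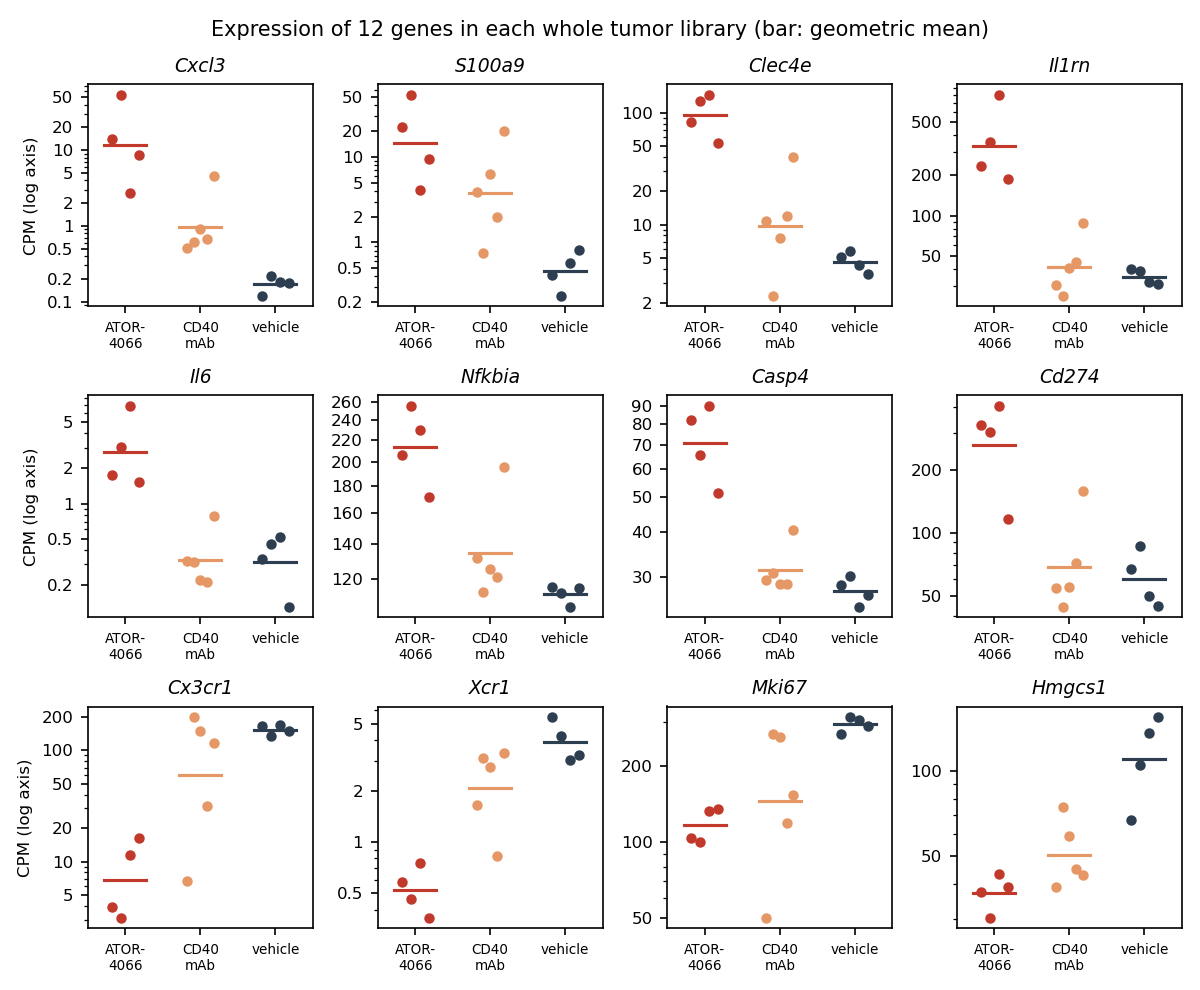
Expression of 12 genes in each whole tumor library, in CPM on a log axis, for ATOR-4066 (n = 4), CD40 mAb (n = 5) and vehicle (n = 4) from left to right, with the geometric mean as a bar. In all 12 genes the ATOR-4066 tumors lie apart from the vehicle tumors, whereas the CD40 mAb tumors reached both the ATOR-4066 and the vehicle values in some genes, as in Cx3cr1 with 6.62 to 201 CPM.

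Neutrophil markers were higher as well. Of 20 markers in the list, 15 were tested, 10 rose (12 with only the 8 libraries) and none fell, with a median log2 change of 2.67. Some of these calls count in other lists too, namely Cxcr2 among the chemokines above, and Il1r2 and Lcn2 in lists below. S100a9 (ENSMUSG00000056071, chromosome 3, 90692632 to 90695721, minus strand), which with S100a8 forms the alarmin calprotectin, was at 22.03, 53.2, 4.14 and 9.52 CPM in the ATOR-4066 tumors, against 0.42, 0.235, 0.578 and 0.806 CPM in the vehicle tumors. Every treated tumor lay above every vehicle tumor, with tumor 2 the highest and tumor 4 the lowest. The log2 change was 5.43 ± 1.09 (SE, adjusted p = 0.0421), and that of S100a8 was 4.86 ± 0.99 (SE, adjusted p = 0.0433). Clec4e (ENSMUSG00000030142, chromosome 6, 123281789 to 123289870, minus strand) and Clec4d encode a pair of C-type lectin receptors of myeloid cells for microbial glycolipids. Clec4e was at 82.8, 127, 145 and 53.6 CPM in the ATOR-4066 tumors, against 5.13, 5.82, 4.36 and 3.59 CPM in the vehicle tumors. The 4 treated values were far from the vehicle range and spanned less than those of S100a9. Clec4e rose by 4.43 ± 0.71 (SE, adjusted p = 0.0392) and Clec4d by 4.44 ± 0.85 (SE, adjusted p = 0.0418). The list was not uniform, since Mmp9, a gelatinase gene named after its values were seen, was at 85.4, 292, 108 and 79.8 CPM in the ATOR-4066 tumors, against 332, 270.4, 377 and 355 CPM in the vehicle tumors, with a log2 change of -1.24 ± 0.61 (SE, adjusted p = 0.225). Mmp9 took the most counts of the list in vehicle tumors, and the summed level of the list overlapped between the groups, at 308 to 1025 CPM in ATOR-4066 tumors, against 338 to 430 CPM in vehicle tumors. The defining marker Ly6g was too low to be tested, at 0.0592 to 0.487 CPM in the ATOR-4066 tumors, against 0.0161 to 0.0199 CPM in the vehicle tumors, and the granule genes Elane and Mpo were below 0.1 CPM in every one of these tumors. The part of neutrophil number in these values was not tested.

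Interleukin genes rose in a set that held both agonists and inhibitors. Of 17 inflammatory cytokine genes tested, 4 rose (10 with only the 8 libraries), none fell, and the median log2 change was 1.65. It was 0.69 without ATOR-4066 tumor 4, and 1.24 to 1.84 without any other. Il1rn (ENSMUSG00000026981, chromosome 2, 24336853 to 24351494, plus strand), which encodes the antagonist of the interleukin-1 receptor, was at 235, 353, 803 and 187 CPM in the ATOR-4066 tumors, against 40.03, 38.5, 32.2 and 30.8 CPM in the vehicle tumors. Tumor 4 was the highest, and all 4 treated tumors lay above vehicle. Il1rn rose by 3.48 ± 0.49 (SE, adjusted p = 0.0299). Il1a, an agonist of the same receptor, rose by 3.87 ± 0.81 (SE, adjusted p = 0.0433), at 2.96 to 26.7 CPM in the ATOR-4066 tumors, against 0.47 to 1.03 CPM in the vehicle tumors. Il1b, the other agonist and named after its values were seen, was at 72.2, 132, 78.1 and 51.3 CPM in the ATOR-4066 tumors, against 15.5, 22.4, 30.6 and 32.2 CPM in the vehicle tumors, without overlap, with a log2 change of 1.73 ± 0.60 (SE, adjusted p = 0.108) and an adjusted p of 0.00681 with only the 8 libraries. Il6 (ENSMUSG00000025746, chromosome 5, 30013114 to 30019981, plus strand), a cytokine that drives the acute phase response, was at 1.75, 3.07, 6.92 and 1.54 CPM in the ATOR-4066 tumors, against 0.336, 0.45, 0.518 and 0.129 CPM in the vehicle tumors. Tumor 4 was the highest, and the levels were low in absolute terms in both groups. Il6 rose by 3.21 ± 0.62 (SE, adjusted p = 0.042). Il23a, the p19 subunit of interleukin-23, was at 5.67, 7.49, 0.442 and 0.671 CPM in the ATOR-4066 tumors, against 0.336, 0.215, 0.239 and 0.387 CPM in the vehicle tumors, so that tumors 1 and 2 stood well above the vehicle range and tumors 4 and 5 just above it. It rose by 3.58 ± 0.78 (SE, adjusted p = 0.0466).

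Among 14 inflammasome and interleukin-1 receptor genes, 3 rose (6 with only the 8 libraries, and 1 fell), with a median log2 change of 0.54. Casp4 (ENSMUSG00000033538, chromosome 9, 5308828 to 5336783, plus strand), the mouse caspase that senses intracellular lipopolysaccharide, was at 81.9, 65.6, 90.01 and 51.4 CPM in the ATOR-4066 tumors, against 28.5, 30.2, 24.7 and 26.7 CPM in the vehicle tumors. Its replicates were close in both groups and did not overlap. Casp4 rose by 1.39 ± 0.18 (SE, adjusted p = 0.025), which was the smallest adjusted p of all genes, shared with Slpi and Pdpn. Slpi encodes a secreted protease inhibitor and Pdpn the membrane glycoprotein podoplanin, and both were named after their values were seen. Slpi was at 118, 74.2, 60.4 and 69.1 CPM in the ATOR-4066 tumors, against 14.6, 10.1, 12.9 and 12.04 CPM in the vehicle tumors and rose by 2.70 ± 0.33 (SE, adjusted p = 0.025). Pdpn was at 132, 201, 119 and 86.4 CPM in the ATOR-4066 tumors, against 31.9, 35.01, 33.3 and 31.1 CPM in the vehicle tumors and rose by 2.04 ± 0.27 (SE, adjusted p = 0.025). In both genes the lowest treated tumor was above the highest vehicle tumor by a wide margin. Il1r2, the decoy receptor of interleukin-1, rose by 2.67 ± 0.56 (SE, adjusted p = 0.0433). Il36g, an interleukin-1 family cytokine of epithelia and macrophages, was at 5.69, 8.41, 0.973 and 0.928 CPM in the ATOR-4066 tumors, against 0.168, 0.0587, 0.0598 and 0.0645 CPM in the vehicle tumors and rose by 5.46 ± 0.94 (SE, adjusted p = 0.0399). The 2 lower treated tumors, 4 and 5, were near 1 CPM. Casp1, the protease that activates interleukin-1 beta, had a log2 change of 0.72 ± 0.25 (SE, adjusted p = 0.11).

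Genes in the list of interleukin-6 family receptors and acute phase genes were also called, none of them a receptor gene. Of 13 genes tested, 4 rose (4 with only the 8 libraries) and none fell, with a median log2 change of 0.76 that was 0.45 without ATOR-4066 tumor 2. Socs3 (ENSMUSG00000053113, chromosome 11, 117966079 to 117970047, minus strand), an inhibitor of cytokine signaling that STAT3 induces, was at 168, 224, 231 and 155 CPM in the ATOR-4066 tumors, against 86.3, 104, 94.5 and 92.8 CPM in the vehicle tumors. The groups were apart, and the vehicle tumors lay within a narrow band. It rose by 1.04 ± 0.15 (SE, adjusted p = 0.0277). Cebpb, a transcription factor of the acute phase and of myeloid cells, was at 186, 184, 163 and 157 CPM in the ATOR-4066 tumors, against 56.1, 62.4, 48.7 and 54.9 CPM in the vehicle tumors. The 4 treated values were close to each other and far from vehicle. It rose by 1.64 ± 0.27 (SE, adjusted p = 0.0399). Saa3 (ENSMUSG00000040026, chromosome 7, 46711998 to 46715700, minus strand), an acute phase protein gene expressed in macrophages and stroma, was at 258, 280.4, 119 and 113 CPM in the ATOR-4066 tumors, against 15.6, 36.3, 23 and 12.9 CPM in the vehicle tumors and rose by 3.13 ± 0.58 (SE, adjusted p = 0.0407). Lcn2, which encodes the iron-binding lipocalin-2, rose by 2.53 ± 0.56 (SE, adjusted p = 0.049). Among immediate early genes, 3 of 17 rose (8 with only the 8 libraries). Dusp1, a phosphatase that shuts off MAP kinases, rose by 2.23 ± 0.45 (SE, adjusted p = 0.0433), Atf3, a stress transcription factor, by 2.06 ± 0.44 (SE, adjusted p = 0.0448), and the AP-1 subunit gene Junb by 0.80 ± 0.16 (SE, adjusted p = 0.0433).

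On the route from CD40 to NF-kappaB, the genes that passed encode inhibitors of NF-kappaB. Of 18 NF-kappaB subunit and feedback inhibitor genes, 2 rose (9 with only the 8 libraries) and none fell, with a median log2 change of 0.49. Over all genes tested, 0.916% were called higher in the 13 libraries and 11.7% with only the 8. Without overlap between the groups, 10 of the 18 were higher and 1 was lower, against 12.6% and 14.7% of all genes tested. Nfkbia (ENSMUSG00000021025, chromosome 12, 55489410 to 55492647, minus strand), the inhibitor that NF-kappaB itself induces, was at 206, 256, 229.8 and 172 CPM in the ATOR-4066 tumors, against 116, 113, 106 and 115 CPM in the vehicle tumors. The vehicle tumors varied little, and every treated tumor lay above them. Nfkbia rose by 0.94 ± 0.18 (SE, adjusted p = 0.0407) and the related inhibitor gene Nfkbib by 0.70 ± 0.12 (SE, adjusted p = 0.0394). The subunit genes Rela and Relb had log2 changes of 0.47 ± 0.12 (SE, adjusted p = 0.061) and 0.44 ± 0.12 (SE, adjusted p = 0.0674). Of 10 genes of CD40 and its signaling partners, none passed (2 higher and 1 lower with only the 8 libraries), with a median of 0.29. Cd40 (ENSMUSG00000017652, chromosome 2, 165055627 to 165072948, plus strand) was at 41.8, 58.8, 155 and 55.8 CPM in the ATOR-4066 tumors, against 42.9, 40.4, 33.4 and 33.9 CPM in the vehicle tumors. Tumor 4 stood above the rest, and tumor 1 lay within the vehicle range. The log2 change of Cd40 was 1.05 ± 0.40 (SE, adjusted p = 0.139), and was 0.47 without tumor 4. Traf1, an adaptor gene that NF-kappaB induces, had a log2 change of 1.36 ± 0.41 (SE, adjusted p = 0.0806), and Traf5 of -0.69 ± 0.18 (SE, adjusted p = 0.0608).

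Dendritic cell maturation genes had a median log2 change of 1.06, with 1 of 19 called (11 of 18 with only the 8 libraries). The called gene was Cd274 (ENSMUSG00000016496, chromosome 19, 29367455 to 29388095, plus strand), which encodes the checkpoint ligand PD-L1. It was at 328, 303, 406 and 116 CPM in the ATOR-4066 tumors, against 67.03, 86.2, 49.8 and 44.9 CPM in the vehicle tumors. Tumor 5 was the lowest of the treated tumors and the closest to vehicle, without overlap. Cd274 rose by 2.22 ± 0.45 (SE, adjusted p = 0.0433). Cd80, a costimulatory ligand of T cells, was at 11.9, 26.5, 20.1 and 10.2 CPM in the ATOR-4066 tumors, against 5.91, 5.35, 3.83 and 4.17 CPM in the vehicle tumors, with a log2 change of 1.84 ± 0.55 (SE, adjusted p = 0.0806). Ccl22, a chemokine of mature dendritic cells, had a log2 change of 1.87 ± 0.60 (SE, adjusted p = 0.0918). The 17 chemokines of monocytes and T cells gave no call (5 higher with only the 8 libraries), with a median of 0.85 that was 0.48 without ATOR-4066 tumor 2 and 0.35 without tumor 4. Ccl5, which attracts T cells, was at 170.1, 147, 1076 and 279 CPM in the ATOR-4066 tumors, against 88.3, 65.9, 45.6 and 50.01 CPM in the vehicle tumors, with tumor 4 far above the other treated tumors. Its log2 change was 2.74 ± 0.86 (SE, adjusted p = 0.0884), and was 1.68 without tumor 4. None of the 13 MHC class I genes passed (3 higher with only the 8 libraries), with a median of 0.42 that was 0.27 without ATOR-4066 tumor 4. None of 11 MHC class II genes passed (1 higher with only the 8 libraries), with a median of -0.22 that was -0.045 without ATOR-4066 tumor 4, 0.10 without vehicle tumor 1 and -0.35 without vehicle tumor 4.

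Interferon-induced genes gave no call in the 13 libraries. None of 21 genes induced by interferon-gamma passed (1 higher with only the 8 libraries), and none of 21 genes induced by type I interferon passed in either fit. The median log2 change of the interferon-gamma list was 0.28 (0.089 without ATOR-4066 tumor 4 and 0.48 without tumor 2). That of the type I list was 0.62 (-0.28 without ATOR-4066 tumor 4, 0.96 without tumor 2, and -0.0011 with voom and sample weights). Rsad2, the antiviral protein viperin, was at 170.4, 134, 1464 and 191 CPM in the ATOR-4066 tumors, against 160.00, 149, 171 and 139 CPM in the vehicle tumors. Tumor 4 was the highest of all, and the others lay about the vehicle range. The log2 change of Rsad2 was 1.66 ± 0.71 (SE, adjusted p = 0.168), against 0.098 without tumor 4, and that of Ifit2, an antiviral RNA-binding protein, was 0.97 ± 0.61 (SE, adjusted p = 0.343).

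T cell genes varied between tumors of the same treatment. None of 20 T cell markers passed (1 higher with only the 8 libraries), with a median log2 change of 0.68 that was 0.41 without ATOR-4066 tumor 4 and 1.03 without vehicle tumor 1. Their summed level was 232 to 666 CPM in ATOR-4066 tumors, against 149 to 368 CPM in vehicle tumors. Cd8a (ENSMUSG00000053977, chromosome 6, 71373427 to 71379173, plus strand), the coreceptor of cytotoxic T cells, was at 3.10, 10.96, 29.8 and 14.3 CPM in the ATOR-4066 tumors, against 22.8, 15.96, 10.9 and 22.96 CPM in the vehicle tumors. The groups overlapped, and the log2 change was -0.32 ± 1.12 (SE, adjusted p = 0.886). Cd4, the coreceptor of helper T cells, was at 27.3, 50.3, 63.7 and 17.04 CPM in the ATOR-4066 tumors, against 25.5, 12.9, 10.6 and 9.99 CPM in the vehicle tumors, with overlap between tumor 5 and vehicle tumor 1, and a log2 change of 1.42 ± 0.72 (SE, adjusted p = 0.238). It was the T cell marker called with only the 8 libraries (adjusted p = 0.0462). Of 16 cytotoxic effector genes none passed (1 higher with only the 8 libraries), with a median of 0.89 that was 0.30 without ATOR-4066 tumor 4. In that tumor Gzmb, the protease granzyme B, was at 468 CPM and the pore-forming Prf1 at 122 CPM, against 29.4 to 51.5 CPM and 10.6 to 22.7 CPM in vehicle tumors. Of 14 checkpoint genes none passed (3 higher with only the 8 libraries), with a median of 0.85 that was 0.42 without ATOR-4066 tumor 4. None of 11 NK cell markers passed in either fit, with a median of 0.02 (-0.090 to 0.20 without any 1 library).

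Enzymes by which myeloid cells use arginine and make prostaglandins gave no call in the 13 libraries and 10 of 16 with only the 8, all higher. Their median log2 change was 1.08, and 10 members did not overlap between the groups. Ptgs2, the inducible cyclooxygenase COX-2, was at 722, 1230.3, 212 and 308 CPM in the ATOR-4066 tumors, against 50.96, 90.3, 35.9 and 24.5 CPM in the vehicle tumors. Arg1, arginase 1, was at 662, 1205, 444 and 429 CPM in the ATOR-4066 tumors, against 124, 126, 28.98 and 80.9 CPM in the vehicle tumors. Nos2, the inducible nitric oxide synthase, was at 329, 195, 463 and 139.9 CPM in the ATOR-4066 tumors, against 25.3, 46.3, 11.5 and 6.49 CPM in the vehicle tumors. In all 3 genes every treated tumor lay above every vehicle tumor, and the vehicle tumors themselves varied severalfold. Their log2 changes were 3.62 ± 0.92 (SE, adjusted p = 0.0596), 2.93 ± 0.67 (SE, adjusted p = 0.0521) and 3.65 ± 0.93 (SE, adjusted p = 0.0607), with adjusted p of 0.00569, 0.00566 and 0.00591 with only the 8 libraries. Slc7a2, an arginine transporter, had a log2 change of 1.65 ± 0.44 (SE, adjusted p = 0.0643). Of 17 matrix-degrading enzymes and their inhibitors none passed (7 higher with only the 8 libraries, median 0.69), and Mmp8, the collagenase of neutrophils, was at 10.2, 24.6, 3.01 and 3.81 CPM in the ATOR-4066 tumors, against 0.84, 1.31, 0.538 and 0.5 CPM in the vehicle tumors. None of 20 hypoxia and glycolysis genes passed (8 higher with only the 8 libraries, median 0.97). Vegfa, the vascular growth factor, was at 381, 321, 255 and 243 CPM in the ATOR-4066 tumors, against 119, 184, 96.03 and 77.6 CPM in the vehicle tumors. The groups did not overlap in Mmp8 or Vegfa. Of 18 apoptosis and survival genes 1 passed (7 higher and 2 lower with only the 8 libraries, median 0.28, and 0.16 without ATOR-4066 tumor 4), and this was Bax, a pore-forming promoter of cell death, which rose by 0.52 ± 0.11 (SE, adjusted p = 0.0433). None of 21 oxidative phosphorylation genes passed (1 lower with only the 8 libraries), with a median of -0.12 (-0.21 to -0.043 without any 1 library).

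**Figure D3:**
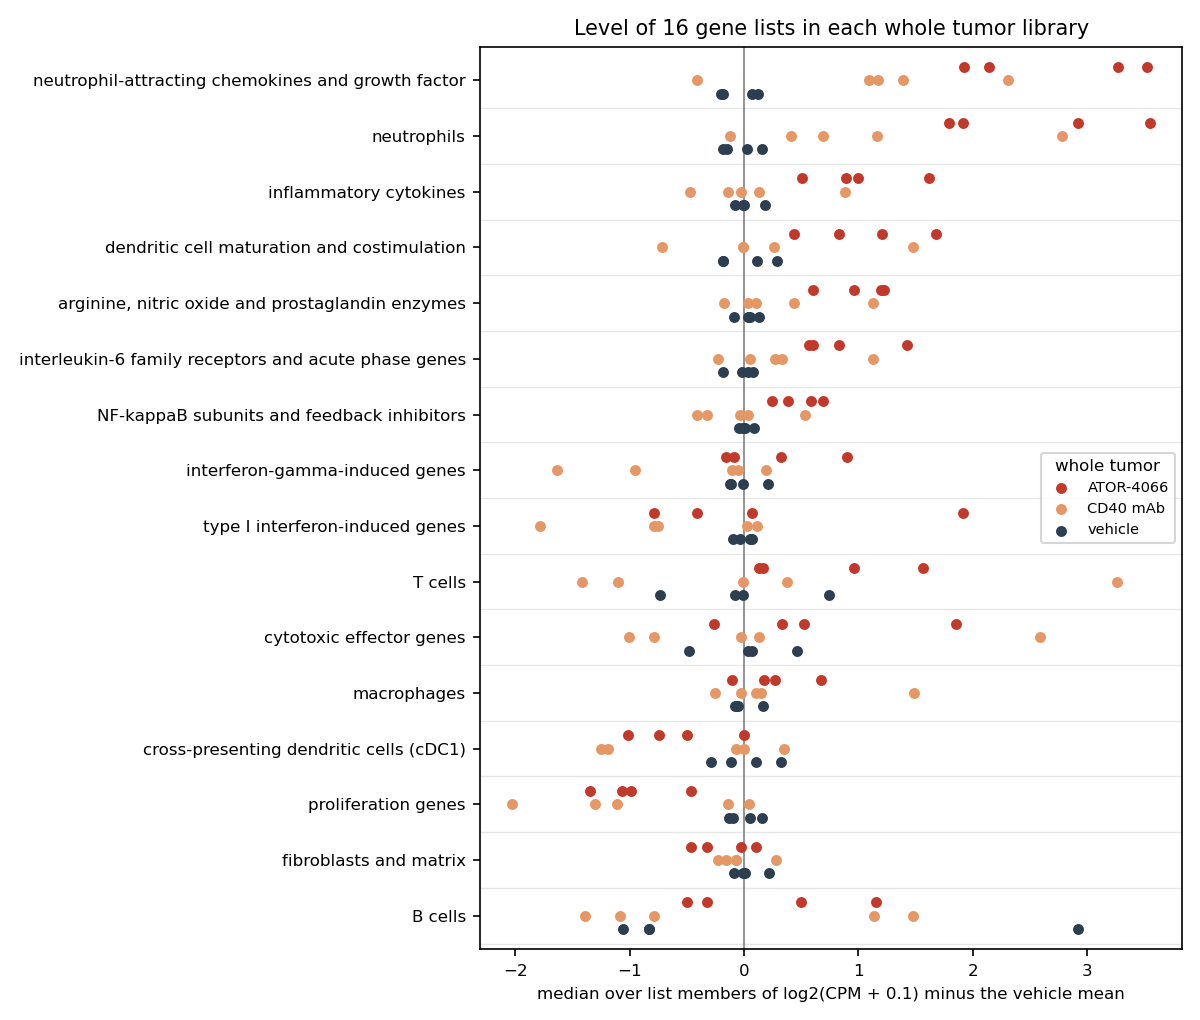
Level of 16 gene lists in each whole tumor library, as the median over members of log2(CPM + 0.1) minus the vehicle mean, for ATOR-4066, CD40 mAb and vehicle from top to bottom within each list. In the neutrophil chemokine list the ATOR-4066 tumors lie at 1.93 to 3.53, and in the proliferation list at -1.34 to -0.47.

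Other genes with the largest increases belong to no list. Hcar2, the receptor for nicotinic acid and the ketone body beta-hydroxybutyrate on myeloid cells and fat cells, was at 28.2, 42.7, 13.9 and 6.12 CPM in the ATOR-4066 tumors, against 2.25, 2.35, 1.63 and 1.58 CPM in the vehicle tumors and rose by 3.54 ± 0.66 (SE, adjusted p = 0.0407). The lowest treated tumor was above the highest vehicle tumor. Nppb, the precursor of a natriuretic peptide, was at 22.3, 35.6, 3.07 and 16.2 CPM in the ATOR-4066 tumors, against 1.02, 2.76, 0.737 and 0.951 CPM in the vehicle tumors and rose by 3.82 ± 0.76 (SE, adjusted p = 0.0421). In Nppb the margin was small, since treated tumor 4 lay just above vehicle tumor 2.

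Cx3cr1 and Fcrls, genes of macrophages, and Xcr1, a gene of cross-presenting dendritic cells, were among the lowest called genes, whereas 13 of 19 macrophage markers had a positive log2 change. Cx3cr1 (ENSMUSG00000052336, chromosome 9, 119901616 to 120069879, minus strand), the fractalkine receptor of macrophages and patrolling monocytes, was at 3.88, 3.09, 11.4 and 16.4 CPM in the ATOR-4066 tumors, against 166, 135, 169 and 148 CPM in the vehicle tumors. All 4 treated tumors lay far below the vehicle range, which was narrow. The change was -4.15 ± 0.87 (SE, adjusted p = 0.0433) on the log2 scale. It was the only called gene of 19 macrophage markers (4 higher and 1 lower with only the 8 libraries), whose median was 0.27 (-0.057 without ATOR-4066 tumor 2 and 0.44 without tumor 5). Other markers of the list went the other way in value, with Cd68, a lysosomal glycoprotein, at 257, 334, 415 and 187 CPM in the ATOR-4066 tumors, against 166, 141, 136 and 139 CPM in the vehicle tumors (log2 change 1.04 ± 0.33 (SE, adjusted p = 0.0885)) and Gpnmb, a glycoprotein of lipid-laden macrophages, at 849, 586, 384 and 516 CPM in the ATOR-4066 tumors, against 253, 289, 191 and 227 CPM in the vehicle tumors (log2 change 1.28 ± 0.39 (SE, adjusted p = 0.085)). Folr2, a folate receptor of resident macrophages, was at 57.3, 56.1, 55.4 and 30.3 CPM in the ATOR-4066 tumors, against 25.1, 23.4, 12.98 and 23.5 CPM in the vehicle tumors, with a log2 change of 1.23 ± 0.39 (SE, adjusted p = 0.0927) and an adjusted p of 0.011 with only the 8 libraries. Cd68, Gpnmb and Folr2 did not overlap between the groups. The summed level of the macrophage list was 4862 to 7479 CPM in ATOR-4066 tumors, against 5672 to 7937 CPM in vehicle tumors, and these ranges overlap. Fcrls, a scavenger receptor-like gene of macrophages and microglia, was at 6.46, 17.3, 10.1 and 11.1 CPM in the ATOR-4066 tumors, against 67.5, 39.2, 93.98 and 69.04 CPM in the vehicle tumors and fell, with a log2 change of -2.58 ± 0.43 (SE, adjusted p = 0.0394). Xcr1 (ENSMUSG00000060509, chromosome 9, 123852315 to 123862029, minus strand), the chemokine receptor that defines cross-presenting dendritic cells, was at 0.583, 0.463, 0.752 and 0.355 CPM in the ATOR-4066 tumors, against 5.49, 4.21, 3.05 and 3.26 CPM in the vehicle tumors. Every treated tumor was below 1 CPM and every vehicle tumor above 3 CPM. Its log2 change was -2.89 ± 0.44 (SE, adjusted p = 0.0386). It was the only call of 9 markers of these cells (3 lower with only the 8 libraries), with a median of -0.52. Of the 9, 7 had a negative and 2 a positive log2 change. Markers of cross-presenting dendritic cells summed to 260 to 476 CPM in ATOR-4066 tumors and 291 to 389 CPM in vehicle tumors, with overlap. Clec9a, a receptor of these cells for dead cells, was at 0.784, 1.04, 1.11 and 0.592 CPM in the ATOR-4066 tumors, against 2.504, 2.00, 1.24 and 1.77 CPM in the vehicle tumors, and Cadm1, an adhesion molecule that they share with other cells, at 2.03, 2.93, 5.35 and 2.88 CPM in the ATOR-4066 tumors, against 9.85, 15.1, 19.5 and 14.7 CPM in the vehicle tumors. The groups did not overlap in Clec9a or Cadm1. Their log2 changes were -1.09 ± 0.48 (SE, adjusted p = 0.184) and -2.16 ± 0.58 (SE, adjusted p = 0.0643), with adjusted p of 0.0314 and 0.00371 with only the 8 libraries. Monocyte markers gave no call (5 of 14 higher with only the 8 libraries), with a median of 0.99 that was 0.083 without ATOR-4066 tumor 4.

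Genes of dividing cells were lower in value, and those of matrix were mixed. Of 22 proliferation genes, 21 had a negative log2 change and 17 were lower in every treated tumor than in any vehicle tumor. None passed in the 13 libraries, 19 were lower with only the 8, and the median was -0.92, between -1.13 and -0.79 without any 1 library. Mki67, the marker of cycling cells, was at 104, 100.6, 133 and 136 CPM in the ATOR-4066 tumors, against 268, 316, 305 and 289 CPM in the vehicle tumors, and Plk1, a mitotic kinase, at 21.2, 23.4, 41.4 and 61.9 CPM in the ATOR-4066 tumors, against 92.9, 94.3, 111 and 115 CPM in the vehicle tumors. Mki67 was lower in the treated tumors by a similar amount in each, and Plk1 was lowest in tumors 1 and 2. Their log2 changes were -1.31 ± 0.39 (SE, adjusted p = 0.0793) and -1.48 ± 0.51 (SE, adjusted p = 0.107), with adjusted p of 0.00153 and 0.0124 with only the 8 libraries. Of 19 fibroblast and matrix genes none passed (4 higher and 6 lower with only the 8 libraries), 9 had a positive and 10 a negative log2 change, and the median was -0.13 (-0.24 to 0.020 without any 1 library). Their summed level was 6937 to 13905 CPM in ATOR-4066 tumors, against 15900 to 22281 CPM in vehicle tumors. The collagen gene Col6a1 was at 343, 246, 765 and 741 CPM in the ATOR-4066 tumors, against 1628, 1309.98, 1973 and 1332 CPM in the vehicle tumors, and Col1a1, the main chain of type I collagen and named after its values were seen, at 816, 1318, 2799 and 1847 CPM in the ATOR-4066 tumors, against 3349, 3165, 5397 and 3893 CPM in the vehicle tumors. Tumors 1 and 2 were the lowest for both collagens. Their log2 changes were -1.57 ± 0.44 (SE, adjusted p = 0.0709) and -1.22 ± 0.35 (SE, adjusted p = 0.0732). Pdgfrb, the platelet-derived growth factor receptor of pericytes and fibroblasts, had a log2 change of -1.36 ± 0.33 (SE, adjusted p = 0.055). The 4 genes called higher with only the 8 libraries, named after their values were seen, were the fibroblast gene Pi16, Lum, which encodes the matrix proteoglycan lumican, the microfibril gene Mfap5 and the surface glycoprotein gene Thy1. Pi16 was at 116, 147, 40.2 and 52.9 CPM in the ATOR-4066 tumors, against 31.9, 43.8, 19.1 and 37.6 CPM in the vehicle tumors, with overlap between ATOR-4066 tumor 4 and vehicle tumor 2, a log2 change of 1.43 ± 0.60 (SE, adjusted p = 0.162) and an adjusted p of 0.0386 with only the 8 libraries. The log2 changes of the others were 0.90 ± 0.46 (SE, adjusted p = 0.241), 0.79 ± 0.36 (SE, adjusted p = 0.195) and 0.76 ± 0.63 (SE, adjusted p = 0.477).

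The called lower genes with the largest changes also held genes of several other functions. Tenm3 (ENSMUSG00000031561, chromosome 8, 48227682 to 48843951, minus strand), a teneurin adhesion protein, was at 12.7, 7.99, 17.5 and 16.2 CPM in the ATOR-4066 tumors, against 82.5, 88.1, 98.5 and 88.7 CPM in the vehicle tumors and fell, with a log2 change of -2.72 ± 0.55 (SE, adjusted p = 0.0433). Hic1, a transcriptional repressor, was at 14.02, 14.05, 19.7 and 23.4 CPM in the ATOR-4066 tumors, against 71.3, 62.5, 92.7 and 76.2 CPM in the vehicle tumors, with a log2 change of -2.09 ± 0.44 (SE, adjusted p = 0.0433). Acpp, an acid phosphatase, was at 11.1, 13.2, 27.4 and 15.5 CPM in the ATOR-4066 tumors, against 81.1, 85.2, 84.2 and 111 CPM in the vehicle tumors, with a log2 change of -2.43 ± 0.52 (SE, adjusted p = 0.0464). Gatm, the first enzyme of creatine synthesis, was at 34.9, 28.4, 39.3 and 42.2 CPM in the ATOR-4066 tumors, against 113, 113, 125 and 174 CPM in the vehicle tumors, with a log2 change of -1.86 ± 0.34 (SE, adjusted p = 0.0407). Pdlim2, a PDZ and LIM domain protein, was at 20.7, 29.8, 42.96 and 35.6 CPM in the ATOR-4066 tumors, against 110.1, 76.3, 135 and 129 CPM in the vehicle tumors, with a log2 change of -1.80 ± 0.40 (SE, adjusted p = 0.049). None of these 5 genes overlapped between the groups. Enzymes of lipid synthesis were among the 12 lowest called genes with a mean log2-CPM of at least 1. Hmgcs1 (ENSMUSG00000093930, chromosome 13, 119690379 to 119708260, plus strand), which makes the HMG-CoA used for cholesterol, was at 37.5, 30.3, 43.2 and 39.2 CPM in the ATOR-4066 tumors, against 67.5, 105, 136 and 155 CPM in the vehicle tumors. The treated tumors lay within a narrow band and the vehicle tumors ranged widely above it. Its log2 change was -1.63 ± 0.26 (SE, adjusted p = 0.0392). Idi1, an isomerase of the same pathway, had a log2 change of -1.77 ± 0.34 (SE, adjusted p = 0.0407). Elovl6, which lengthens fatty acids, was at 8.37, 10.7, 11.1 and 13.1 CPM in the ATOR-4066 tumors, against 30.9, 35.2, 41.7 and 55.7 CPM in the vehicle tumors, with a log2 change of -1.91 ± 0.41 (SE, adjusted p = 0.0448).

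Markers of other cell types that a tumor sample can hold gave no call apart from Pf4 in the list of 5 platelet genes, where the gene is counted a second time. None of 14 B cell markers passed (1 lower with only the 8 libraries), and their median of -0.75 was 1.43 without vehicle tumor 1 and -1.25 without ATOR-4066 tumor 4. With only the 8 libraries, 3 of 4 platelet genes were called higher, 1 gene was called higher in each of the plasma cell, cDC2, plasmacytoid dendritic cell, skin, lymphoid stroma, and eosinophil, basophil and mast cell lists, and 1 was called lower in the plasmacytoid list. The platelet list had a median of 1.30, and its summed level was 58.2 to 164 CPM in ATOR-4066 tumors, against 22.9 to 29.8 CPM in vehicle tumors. The medians of several of the following lists changed in size or sign with single libraries. The median of plasma cell markers was 0.60 (0 of 10 passed), or 0.056 without ATOR-4066 tumor 4. Regulatory T cell markers had 0.53 (0 of 8), or 0.040 without ATOR-4066 tumor 4. The cDC2 markers had 0.66 (0 of 10), or 0.17 without ATOR-4066 tumor 2. Plasmacytoid dendritic cell markers had 0.27 (0 of 9), or -0.0042 without ATOR-4066 tumor 4 and 0.94 without vehicle tumor 1. Tumor epithelial markers had 0.34 (0 of 12), or -0.20 without ATOR-4066 tumor 4 and 0.70 without vehicle tumor 1. Endothelial markers had 0.24 (0 of 14), or 0.033 without ATOR-4066 tumor 4. Skeletal muscle genes had 0.22 (0 of 12), or -0.28 without ATOR-4066 tumor 5 and 1.07 without vehicle tumor 4. Fat cell genes had -0.57 (0 of 10), or 0.12 without vehicle tumor 5. Leaving out any 1 library, the median ranged from -0.37 to 0.0071 for eosinophil, basophil and mast cell markers (-0.15, 0 of 11), from -0.71 to -0.13 for erythroid markers (-0.63, 0 of 5), from -0.18 to 0.69 for skin genes (0.071, 0 of 8) and from -0.18 to 1.60 for lymphoid stroma genes (0.030, 0 of 8). Muscle and fat varied by library in both groups. Muscle genes summed to 6.14 to 150.2 CPM in ATOR-4066 tumors, against 25 to 144 CPM in vehicle tumors, and fat cell genes to 64 to 328 CPM in ATOR-4066 tumors, against 64.4 to 610 CPM in vehicle tumors. Their part in the results was not tested.

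Set against CD40 mAb, the antibody to CD40 alone, the ATOR-4066 tumors differed in few genes by test. Of 18454 genes, 6 (0.0325%) passed between ATOR-4066 and CD40 mAb tumors. In the same fit, 0 genes passed between CD40 mAb and vehicle tumors. The contrast with CD40 mAb was not refitted with a library left out or with another method. The named genes among the 6 were Socs3, Casp4, Il1rn and Slpi. Socs3 was at 168, 224, 231 and 155 CPM in ATOR-4066 tumors, against 74.03, 74.1, 79.8, 69.5 and 89.9 CPM in CD40 mAb tumors 1 to 5. No CD40 mAb tumor reached the lowest ATOR-4066 tumor, and the log2 difference was 1.33 ± 0.14 (SE, adjusted p = 0.00489). Casp4 was at 51.4 to 90.01 CPM in ATOR-4066 tumors, against 28.6 to 40.6 CPM in CD40 mAb tumors, a log2 difference of 1.19 ± 0.16 (SE, adjusted p = 0.0307). Il1rn was at 187 to 803 CPM in ATOR-4066 tumors, against 25.05 to 88.2 CPM in CD40 mAb tumors, a log2 difference of 3.10 ± 0.45 (SE, adjusted p = 0.0336). Slpi had a log2 difference of 2.25 ± 0.30 (SE, adjusted p = 0.0307). The CD40 mAb tumors varied widely among themselves. Cx3cr1 was at 3.88, 3.09, 11.4 and 16.4 CPM in ATOR-4066 tumors, against 6.62, 201, 151, 31.7 and 117 CPM in CD40 mAb tumors 1 to 5. CD40 mAb tumor 1 lay in the ATOR-4066 range, tumor 4 lay between the groups, and tumors 2, 3 and 5 lay near vehicle. The log2 difference was -3.54 ± 0.83 (SE, adjusted p = 0.188). Clec4e, at 53.6 to 145 CPM in ATOR-4066 tumors and 2.29 to 39.97 CPM in CD40 mAb tumors, did not overlap between the 2 antibodies, with a log2 difference of 2.82 ± 0.61 (SE, adjusted p = 0.148). Lcn2 did overlap, at 15.8 to 34.7 CPM in ATOR-4066 tumors and 4.41 to 48.95 CPM in CD40 mAb tumors, with a log2 difference of 0.10 ± 0.50 (SE, adjusted p = 0.969). Both contrasts use the same ATOR-4066 tumors.

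CD45+Ly6G- cells, that is leukocytes without Ly6G-bearing cells, sorted from tumors of other animals under ATOR-4066 (n = 3) or vehicle (n = 4) allow the direction of each change to be read in a second set of libraries. In them 1977 of 16667 genes (11.9%) passed between ATOR-4066 and vehicle, with 1126 called higher and 851 called lower. Counts of genes called in 1 direction in sorted cells are to be read against these 2 numbers, not against the 11.9%. The count of 1977 was 701 and 1017 without sorted ATOR-4066 samples 6 and 9 in turn, and 931, 823 and 627 without sorted vehicle samples 6, 9 and 10. Of the 169 genes called higher in whole tumor, 148 were tested in sorted cells. There, 94 had a positive sign, 23 were called higher (13.6% of all 169 tumor calls and 2.04% of the 1126 genes called higher in sorted cells) and 4 were called lower. Of the 74 called lower, 69 were tested, 36 had a negative sign, 10 were called lower (13.5% of all 74 tumor calls and 1.18% of the 851 genes called lower in sorted cells) and 2 were called higher. The median log2 change of the genes called higher was 1.65 in tumor and 0.16 in sorted cells, and that of the genes called lower -1.09 and -0.04. The values in tumor chose the genes, so only those in sorted cells are free of the choice. A gate against Ly6G is meant to remove neutrophils, and one on CD45 to leave out tumor cells and stroma.

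Genes that passed in the same direction in both materials included Cx3cr1, with a log2 change of -2.94 (adjusted p = 0.00829) in sorted cells, Xcr1 with -2.88 (adjusted p = 0.0251), Cxcl2 with 3.27 (adjusted p = 0.0163), Nfkbia with 1.72 (adjusted p = 0.00329) and Il1a with 2.38 (adjusted p = 0.0131). For each of these 5 genes the difference between the materials did not pass its own test, which does not show that it is 0, and for Cx3cr1 it was -1.42 ± 1.32 (SE, voomLmFit, adjusted p = 0.571). The interaction test called 1437 of 20218 genes (7.11%, with 924 called without ATOR-4066 tumor 2 and 796 without vehicle tumor 4 or 5). It used voom with sample weights, and in whole tumor alone that method called 4913 genes, against 243 in the edgeR fit. Adjusted p-values of the interaction are therefore not directly comparable with those of edgeR in each material. Il1rn had a change of 0.87 (adjusted p = 0.328) in sorted cells, and its log2 change in tumor minus that in sorted cells was 2.91 ± 0.74 (SE, voomLmFit, adjusted p = 0.024). Clec4e had 1.09 (adjusted p = 0.185) in sorted cells and a difference of 3.68 ± 0.94 (SE, voomLmFit, adjusted p = 0.025). Casp4 had -0.35 (adjusted p = 0.337) and a difference of 1.78 ± 0.29 (SE, voomLmFit, adjusted p = 0.00411), Socs3 had -0.087 (adjusted p = 0.882) and 1.21 ± 0.31 (SE, voomLmFit, adjusted p = 0.0261), and Cebpb had -0.032 (adjusted p = 0.971) and 1.97 ± 0.51 (SE, voomLmFit, adjusted p = 0.0269). In these 5 genes the increase in whole tumor was larger than in the sorted leukocytes, and since they were named for their change in whole tumor, the sizes of these differences are a description. Proliferation genes were among several lists with medians of opposite sign, with 19 of 22 called higher in sorted cells at a median of 1.52, against -0.92 in whole tumor. Mki67 had 1.77 (adjusted p = 0.0143) in sorted cells and a difference of -3.00 ± 0.60 (SE, voomLmFit, adjusted p = 0.00823). Type I interferon genes had a median of 0.62 in tumor and -1.51 in sorted cells (9 of 21 called lower there). Macrophage markers had 0.27 and -1.10 (5 of 17 called lower), monocyte markers 0.99 and -0.90, and B cell markers -0.75 and 2.88. The medians of neutrophil chemokines and neutrophil markers were positive in both materials, at 3.62 and 1.09 in sorted cells. T cell markers, with no call in whole tumor, were called higher for 17 of 20 genes in sorted cells. Hmgcs1 had -0.097 (adjusted p = 0.733) in sorted cells and a difference of -1.47 ± 0.36 (SE, voomLmFit, adjusted p = 0.0206). Ceacam1, a mouse relative of the human target CEACAM5, was at 47.8, 42.2, 26.9 and 38.03 CPM in the ATOR-4066 tumors, against 15.7, 21.7, 10.8 and 12.1 CPM in the vehicle tumors, with a log2 change of 1.36 ± 0.44 (SE, adjusted p = 0.0965) in tumor, -1.36 (adjusted p = 0.0797) in sorted cells and a difference of 2.82 ± 0.74 (SE, voomLmFit, adjusted p = 0.0273).

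**Figure D4:**
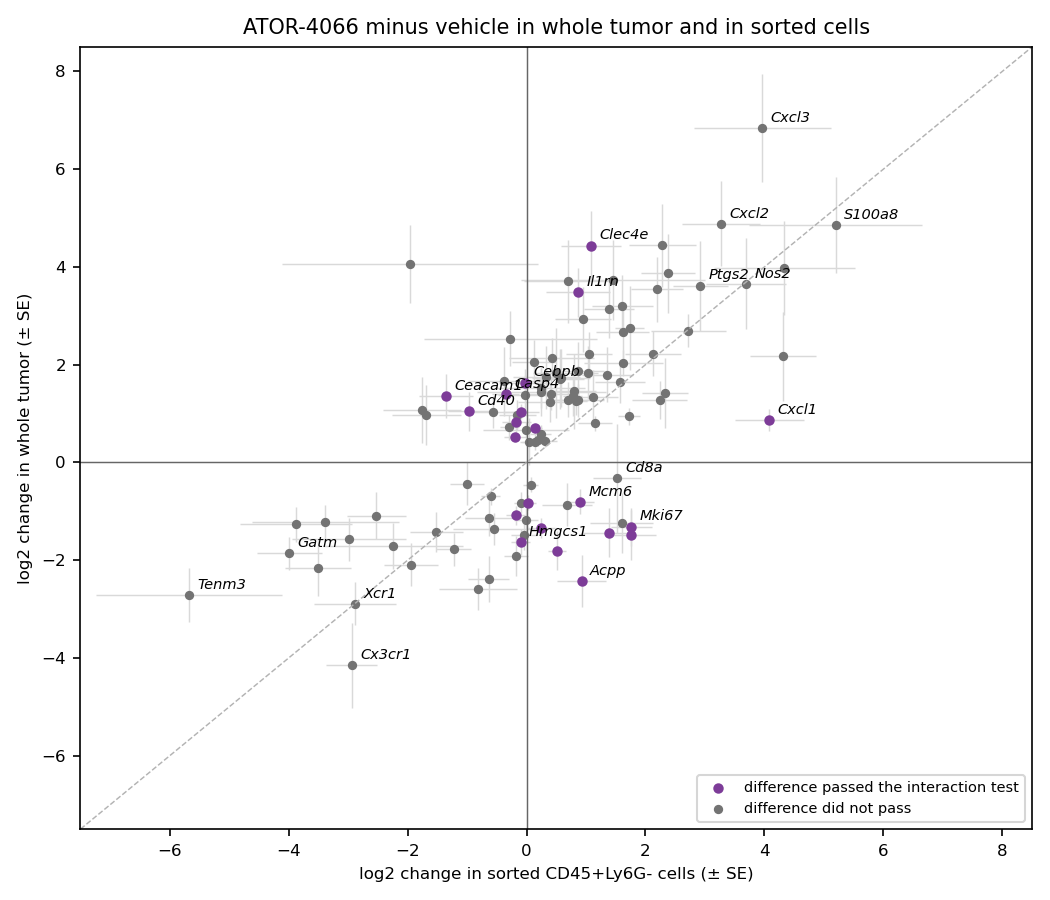
Log2 change between ATOR-4066 and vehicle in whole tumor (vertical axis) and in sorted CD45+Ly6G- cells (horizontal axis), with SE bars, for 108 genes named or examined here that have a value in both, and a dashed line where both are equal. In 21 genes, marked in purple, the difference passed the interaction test, among them Il1rn, Clec4e and Casp4 above the line and Mki67 below it. Over all genes 7.11% passed, and many of the genes plotted were named for their change in whole tumor.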

How the data were processed

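RNA was extracted with the PureLink RNA Mini Kit and the Mouse RiboPure kit and made into libraries with an Illumina stranded mRNA kit, per the labels' protocols. The authors deposited estimated counts, made with salmon according to the table's name, in one matrix for all samples, with no scaling for depth or gene length. The submitters' processing notes name STAR, with 5.1 as its version, and GRCm38, and other settings are not given in the labels. Estimated counts were rounded to whole numbers (11% of cells were fractional). Of 57010 genes, 52029 have an identifier in GENCODE vM21, the source of coordinates, and 147 symbols are carried by more than 1 identifier. Columns were matched to samples by title, and groups come from the labelled tissue and treatment. Nothing in the labels says how replicates were raised beyond separate animal numbers.

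One model of edgeR 4.0.16 (R 4.3.3) took in the 13 tumor libraries (filterByExpr with a minimum count of 10 and total of 15, TMM factors, robust quasi-likelihood F test, Benjamini-Hochberg adjustment over all genes). A gene was called at an adjusted p under 0.05. CPM values use library sizes scaled by TMM, and SE is the log2 change divided by the root of F. The 10 sorted libraries were fitted alike, and the difference between materials was tested as an interaction with voomLmFit (limma 3.58.1) over 23 libraries with sample weights by tissue. Counts came from PCR-amplified libraries without molecular identifiers, and depth limits low genes most. The methods were tested on simulated data.

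The comparison, its members and the 42 lists (584 gene symbols) were chosen with earlier results of these data known. Of these, 3 symbols were not found (Gnly, Ero1l and Fdcsp). Named genes are a part of those a rule selects: from called genes with a mean log2-CPM of at least 1, the 12 highest and 12 lowest changes, without predicted genes, pseudogenes, receptor segments, mitochondrial genes and repeated symbols; from each list the 4 measured members with the smallest p; and 10 fixed genes. Some of these are not reported here. Others are said to be named after their values were seen. Alternatives were DESeq2 1.42.0 and its size factors, upper-quartile factors, voom with sample weights, other filters, the 8 libraries alone, a replicate block, the left-out library put back, and each replicate left out. Promoter sequences are from RefSeq (GRCm38.p6), matched by symbol.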

Additional observations from a re-analysis of the deposited data

Results flagged for a closer look

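In 14 of 228 groups of 4 libraries examined (6.14%), 1 library was far from the other 3, where chance gives about 5%. Among ATOR-4066 tumors these were tumor 4 for Rsad2 (1464 CPM), Prf1 (122 CPM) and the class I gene H2-D1 (5154 CPM), each the highest, and tumor 5 for Atf3 (52.1 CPM) and the folate receptor gene Folr2 (30.3 CPM), each the lowest. Among vehicle tumors, tumor 4 was the highest for Col5a1 (1355 CPM) and Pdgfrb (124 CPM) and the lowest for B2m (2419.7 CPM), Rela (90.8 CPM) and Folr2 (12.98 CPM). Vehicle tumor 5 was the highest for Acpp (111 CPM) and the lowest for Cxcl1 (3.30 CPM), vehicle tumor 1 the highest for Il36g (0.168 CPM) and vehicle tumor 2 the lowest for S100a8 (0.274 CPM).

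For 21 of 114 genes examined, the log2 change under ATOR-4066 in whole tumor minus that in sorted cells passed the voomLmFit interaction test. Over all genes the share was 7.11% (1437 of 20218). Many of the 114 were named for their change in the same whole tumor libraries, so their count is a description. The difference was positive for Clec4e (3.68), Il1rn (2.91), Ceacam1 (2.82), Cd40 (2.01), Cebpb (1.97), Casp4 (1.78), Socs3 (1.21), the survival gene Mcl1 (1.07), Bax (0.70) and Nfkbib (0.56). Neither Cd40 nor Ceacam1 passed in either material alone, and their signs were opposite there. Each material alone was tested with edgeR, whereas the difference was tested with voom, which called more genes in whole tumor. It was negative for Cxcl1 (-3.46), which was higher in both materials in value, and for Acpp (-3.46), Plk1 (-3.30), Mki67 (-3.00), the mitotic activator Cdc20 (-2.83), Pdlim2 (-2.30) and the replication helicase gene Mcm6 (-1.72). Genes of cholesterol synthesis and transport had negative differences too, namely Stard4 (-1.47), Hmgcs1 (-1.47), Srebf2 (-0.89) and Nsdhl (-0.81).

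In the library labelled tumor ATOR-4066 3, which no comparison above uses, B cell markers summed to 6842.56 CPM and lymphoid stroma and high endothelium markers to 1821.21 CPM, above every vehicle tumor, where they reached 318 and 104 CPM.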

How the results depend on the processing

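The called genes kept their signs, and their calls were not stable. Of the 243 called genes, 240 to 243 had a value of the same sign under each alternative other than the filter of 1 CPM. At that filter, at least 1 CPM in 4 libraries, 214 did and were still called, and genes it removed have no value. In all 243 the ATOR-4066 and vehicle tumors did not overlap, so refits of these libraries could hardly change a sign. The stable signs are therefore a description and not a test. The count of calls was 3959 (2058 higher, 1901 lower) with only the ATOR-4066 and vehicle libraries, 2442 (1276 and 1166) with DESeq2, 4913 (2410 and 2503) with voom and sample weights, 57 (47 and 10) with no filter on low counts and 382 (243 and 139) with the filter of 1 CPM. It was 232 with DESeq2 size factors and 281 with upper-quartile factors. Higher genes were 69.5% of calls in the fit reported, 52% with only the 8 libraries, 52.3% with DESeq2 and 49.1% with voom. No gene passed (0 called, 0 higher, 0 lower) with the library labelled tumor ATOR-4066 3, where 4396 had an unadjusted p under 0.05. Leaving out 1 library gave 0 to 2202 calls (0 to 1119 higher and 0 to 1083 lower), and where it gave 0, 3227 to 3909 genes had an unadjusted p under 0.05.

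Replicate numbers were not treated as pairs. The deviations of same-numbered tumors correlated at -0.26 to 0.05, and those of differently numbered tumors at -0.16 to 0.25. So few weak correlations cannot show that the numbers carry no pairing. A replicate block on the 8 libraries gave 3059 calls (1467 higher and 1592 lower), and moved these list medians by over 1.5 times, to 0.19 for type I interferon, -0.14 for MHC class II, -0.060 for NK cells, 0.37 for B cells, 0.61 for monocytes, 0.46 for plasmacytoid dendritic cells, -0.080 for eosinophils, basophils and mast cells, 0.18 for tumor epithelium, 0.10 for endothelium, 0.81 for lymphoid stroma, -0.68 for skeletal muscle, -0.29 for skin and 0.029 for fat cells.

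With the library labelled tumor ATOR-4066 3, list medians were 0.49 for MHC class II, 1.77 for T cells, 3.96 for B cells, 3.01 for plasma cells, 0.13 for cDC1, 1.12 for plasmacytoid dendritic cells, 2.71 for lymphoid stroma, 0.82 for fat cells, 0.16 for apoptosis, -0.026 for oxidative phosphorylation, 0.48 for CD40 and its partners, 0.096 for NK cells, 0.14 for macrophages, 1.04 for cDC2, -0.26 for eosinophils, basophils and mast cells, -0.22 for erythroid cells, 1.10 for tumor epithelium and 0.021 for skeletal muscle. With voom they were -0.0011 for type I interferon, -0.14 for MHC class II, 0.27 for regulatory T cells, -0.19 for NK cells, -0.19 for B cells, 0.52 for monocytes, -0.18 for tumor epithelium, -0.29 for fibroblasts and matrix, -0.26 for endothelium, 0.41 for lymphoid stroma, -0.82 for skeletal muscle, -0.48 for skin and -0.21 for fat cells. With no filter they were 0.81 for platelets, 0.0037 for NK cells, -0.034 for eosinophils, basophils and mast cells, 0.13 for lymphoid stroma and 0.24 for skin, and with the 1 CPM filter -0.33 for eosinophils, basophils and mast cells, 0.53 for lymphoid stroma and 0.34 for skin. With DESeq2 and with its size factors only the NK cell median moved by over 1.5 times (0.036 in both), and with upper-quartile factors or only the 8 libraries none did. Leaving out 1 library, medians ranged from 0.58 to 0.84 for matrix-degrading enzymes, 0.056 to 0.92 for plasma cells, -0.057 to 0.44 for macrophages, 0.69 to 1.84 for inflammatory cytokines, 0.35 to 1.03 for monocyte and T cell chemokines, 0.083 to 1.15 for monocytes, -1.25 to 1.43 for B cells and -0.18 to 1.60 for lymphoid stroma.

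Of 114 genes examined, 6 changed sign under some alternative, none of them called. For the called genes this was largely set beforehand, since their groups did not overlap. With the library labelled tumor ATOR-4066 3 the log2 change was 0.021 for Traf5, 0.24 for Itgae, 0.94 for Cd8a and 0.77 for Ciita. It was -0.0011 for Oasl1 with voom. Without 1 library it ranged from -0.94 to 0.014 for Cd8a (positive without ATOR-4066 tumor 1), from -0.26 to 1.33 for Ifit2 and from -0.43 to 1.44 for Oasl1 (both negative without ATOR-4066 tumor 4). The cause of these changes was not tested. All 50 called genes examined were also called with only the 8 libraries, as were 102 of the 114. Leaving out each CD40 mAb tumor, each sorted ATOR-4066 or vehicle library, each library of the 8 and, in the interaction test, each ATOR-4066 or vehicle tumor was added after seeing the data. Leaving out 1 library of those 8 gave 1774 to 4822 calls. In sorted cells the count was 627 to 2525 without 1 ATOR-4066 or vehicle library. The interaction called 936 genes with the library labelled tumor ATOR-4066 3, and 796 to 1491 without 1 ATOR-4066 or vehicle tumor. An interaction by the edgeR quasi-likelihood test was also run, and its count is not reported here. No CD40 mAb tumor and no sorted library was left out of the interaction test.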

Other observations

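Cholesterol synthesis and uptake genes were lower in the ATOR-4066 tumors. This list of 25 genes was put together after Hmgcs1 and Idi1 had been seen among the lowest genes, so its counts are a description. Of 25 genes tested, 8 were called lower (18 with only the 8 libraries, 0 higher in either), 17 were lower in every ATOR-4066 tumor than in any vehicle tumor, and the median log2 change was -0.99, between -1.18 and -0.84 without any 1 library. Srebf2, which encodes the transcription factor that induces the pathway, was at 102, 83.3, 119 and 103 CPM in the ATOR-4066 tumors, against 167, 194, 249.6 and 249.5 CPM in the vehicle tumors. The groups did not overlap, and its log2 change was -1.08 ± 0.19 (SE, adjusted p = 0.0407). Stard4, a carrier protein for cholesterol, was at 12.4, 14.2, 14.1 and 12.5 CPM in the ATOR-4066 tumors, against 24.6, 29.96, 39.5 and 40.5 CPM in the vehicle tumors, with a log2 change of -1.34 ± 0.20 (SE, adjusted p = 0.0326). Nsdhl, Lss and Acat2, enzymes of the same pathway, had changes of -0.82 ± 0.15 (SE, adjusted p = 0.0407), -1.18 ± 0.24 (SE, adjusted p = 0.0433) and -1.47 ± 0.32 (SE, adjusted p = 0.048). The summed level of the list was 587 to 697 CPM in ATOR-4066 tumors, 541 to 967 CPM in CD40 mAb tumors and 967 to 1841 CPM in vehicle tumors, so that the highest CD40 mAb tumor was level with the lowest vehicle tumor. In sorted CD45+Ly6G- cells the list had a median of -0.16, with 5 of 24 genes called lower. A sterol regulatory element was found in the promoter window of 1 of the 17 of these genes with a window (5.88%), against 1.20% of all genes tested. That gene was Hmgcs1, which had prompted the list, so this share is a description. The NF-kappaB consensus was found in 3 of the 17 (17.6%), a share near that of called higher genes, and the C/EBP motif in 2 of the 17 (11.8%).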
